A study of Homo sapiens with 12 samples.

Results

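The genes of MHC class I antigen presentation followed here were measured across 12 RNA-seq libraries of A498, an established cell line from a human kidney carcinoma. They were the heavy chain genes HLA-B and HLA-C, the light chain gene B2M, the peptide transporter genes TAP1 and TAP2, the tapasin gene TAPBP, the immunoproteasome genes PSMB8 and PSMB9, and the transactivator gene NLRC5. The genes were taken as a list of names from the pathway, proposed with earlier results of these data known, and all 9 of 9 had a row among the 57773 genes of the deposited table. TAP2 stood in the table under a numbered name, and a further numbered TAP2 row was at 0 in every library.

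MHC class I molecules carry peptides from inside the cell to its surface, where CD8+ T cells read them. Proteasomes cut proteins into peptides, and PSMB8 and PSMB9 encode catalytic subunits that replace constitutive ones in the immunoproteasome. TAP1 and TAP2 form the transporter that moves peptides into the endoplasmic reticulum, where tapasin holds an empty class I molecule next to it. A class I molecule is made of a heavy chain, such as that of HLA-B or HLA-C, and beta-2 microglobulin, the product of B2M. NLRC5 is a transactivator of class I genes, and interferons raise the transcription of many genes of this pathway.

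The cells had received a control siRNA, siRNA against ELOVL2 (siELOVL2), siRNA against ELOVL5 (siELOVL5), or siRNA against both (double knockdown), each of the 4 groups having 3 biological replicates. ELOVL2 and ELOVL5 encode elongases of polyunsaturated fatty acids. The labels give 1 batch for all 12 libraries and state neither the siRNA sequences, the time of harvest nor any interferon treatment, and every sample came from 1 cell line.

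The deposited values were counts after quantile normalization, in which every library has the same set of values, so a gene's value in a library reflects its rank there. The depth read from the steps of low values was 6.70 to 10.68 M reads per library. At the lowest member value, 286.417 for TAP2, counting error alone gave a relative SD of 5.91%. The knockdowns matched their labels: ELOVL2 was at 18.4 to 30.1 where it was targeted and 165 to 299 elsewhere, and ELOVL5 was at 141 to 187 where targeted and 1791 to 2328 elsewhere. The summed level of 12 renal epithelial markers was 34643 to 35165 in control libraries, 28317 to 28986 with siELOVL2, 27483 to 33148 with siELOVL5 and 26222 to 30221 in the double knockdown. VIM had the highest mean of that list, at 17340 over all libraries, and KRT8 came next at 6676. The sum therefore mostly reflects these genes and not the list as a whole. Members of that list went both ways, with 4 of 12 above control with siELOVL2, 4 with siELOVL5 and 3 in the double knockdown. VCAM1 fell by 0.51 on the log2 scale with siELOVL2 (limma adjusted p = 0.0130; lost in 4 of the 12 fits that each left out 1 library), and with siELOVL5 it differed from control by 0.32 (limma adjusted p = 0.260). KRT8 and KRT18 differed from control by 0.30 and 0.27 with siELOVL2 and by -0.15 and -0.07 with siELOVL5, with none of these 4 differences called. The summed level of 16 leukocyte markers was 32.8 to 43.0 in control libraries, 46.4 to 66.1 with siELOVL2, 34.8 to 51.2 with siELOVL5 and 43.9 to 65.8 in the double knockdown, with CD3D and CD3E at 0 in every library. ITGAM had the highest mean of that list, at 16.1 to 33.2 in control libraries and 30.2 to 48.8 with siELOVL2. The part of either marker list in the results was not tested. In bulk samples fewer cells with a transcript and less of it per cell cannot be told apart.

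The stretches of promoter sequence below are shown because the genes are known to share control elements, so a reader can set the letters beside the expression values. They come from RefSeq on build GRCh38.p14, run 5′ to 3′ on the strand of the gene and lie within the 250 bases before its start. Capitals mark matches, on either strand and with overlaps, to GAAANNGAA or its spaced variant GAANNGAAA (a pair of interferon response half-sites), the NF-kappaB consensus, TGACGC (a CRE-like word) and ATTGG (the CCAAT word).
HLA-B, chr6:31357225-31357362, minus strand: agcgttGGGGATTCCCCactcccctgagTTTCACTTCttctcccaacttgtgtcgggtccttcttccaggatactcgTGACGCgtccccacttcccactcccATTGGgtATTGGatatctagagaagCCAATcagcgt
HLA-C, chr6:31272138-31272290, minus strand: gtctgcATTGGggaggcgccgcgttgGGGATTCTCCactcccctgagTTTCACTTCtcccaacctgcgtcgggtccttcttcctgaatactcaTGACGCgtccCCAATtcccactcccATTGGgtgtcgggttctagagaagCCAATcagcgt
B2M, chr15:44711367-44711478, plus strand: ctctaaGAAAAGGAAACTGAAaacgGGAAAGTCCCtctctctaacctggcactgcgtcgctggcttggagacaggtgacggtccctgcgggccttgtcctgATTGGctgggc
TAP1, chr6:32853761-32853954, minus strand: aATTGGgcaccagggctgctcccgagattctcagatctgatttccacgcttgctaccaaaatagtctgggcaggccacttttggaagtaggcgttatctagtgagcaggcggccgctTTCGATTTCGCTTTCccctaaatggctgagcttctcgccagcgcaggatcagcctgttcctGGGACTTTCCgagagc
TAP2, chr6:32838763-32838808, minus strand: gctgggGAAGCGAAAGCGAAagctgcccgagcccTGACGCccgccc

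The 8 members with a promoter in the reference table had 10 promoter windows. A spaced half-site pair was found in 6 of these 10, against 12.444% of the 35116 promoter windows of that length. The 6 belonged to HLA-B, HLA-C, B2M, TAP1, TAP2 and TAPBP. The NF-kappaB consensus was found in 5 of the 10 (B2M, HLA-B, HLA-C, TAP1 and TAPBP) and in 5.206% of all windows. TGACGC was found in 3 of the 10 (HLA-B, HLA-C and TAP2) and in 7.669% of all windows. ATTGG was found in 5 of the 10 (B2M, HLA-B, HLA-C, PSMB9 and TAP1) and in 32.008% of all windows. TAP1 and PSMB9 are transcribed away from each other from starts 488 bases apart, their windows share 13 bases, and the same copy of the CCAAT word was counted for both. The words were chosen with these sequences in view, and a match is a description of letters and not of a bound site.

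None of the 9 members changed at an adjusted p under 0.05 in any of the 7 comparisons made (limma without a replicate block across the 18648 genes tested, Benjamini-Hochberg adjustment). The shares of all tested genes called were 1.36% for siELOVL2 against control, 0.139% for siELOVL5 against control, 4.42% for the double knockdown against control, 0.059% for the double knockdown against siELOVL2, 2.77% for the double knockdown against siELOVL5, 3.01% for siELOVL5 against siELOVL2 and 0% for the interaction of the 2 siRNAs. At these shares, fewer than 1 call among 9 genes would match the background in each comparison. The differences nearest to the threshold were those of NLRC5 and HLA-B in the double knockdown, with adjusted p of 0.0507 and 0.0952 by limma. At an unadjusted p under 0.05, 1 of 9 members stood apart with siELOVL2, 4 of 9 with siELOVL5 and 2 of 9 in the double knockdown, against 13.7%, 9.56% and 18.8% of all tested genes. With the replicate number as a block, NLRC5 was called with siELOVL2, with siELOVL5 and in the double knockdown (limma adjusted p = 0.0270, 0.0132 and 0.00110). The block raised the genes called in these comparisons to 861, 99 and 1866. HLA-B, TAP1 and TAPBP also had calls with the block. No member did for the double knockdown against siELOVL2 or for the interaction. In the other comparisons the absence of member calls thus depended on fitting without the block.

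**Figure D1:**
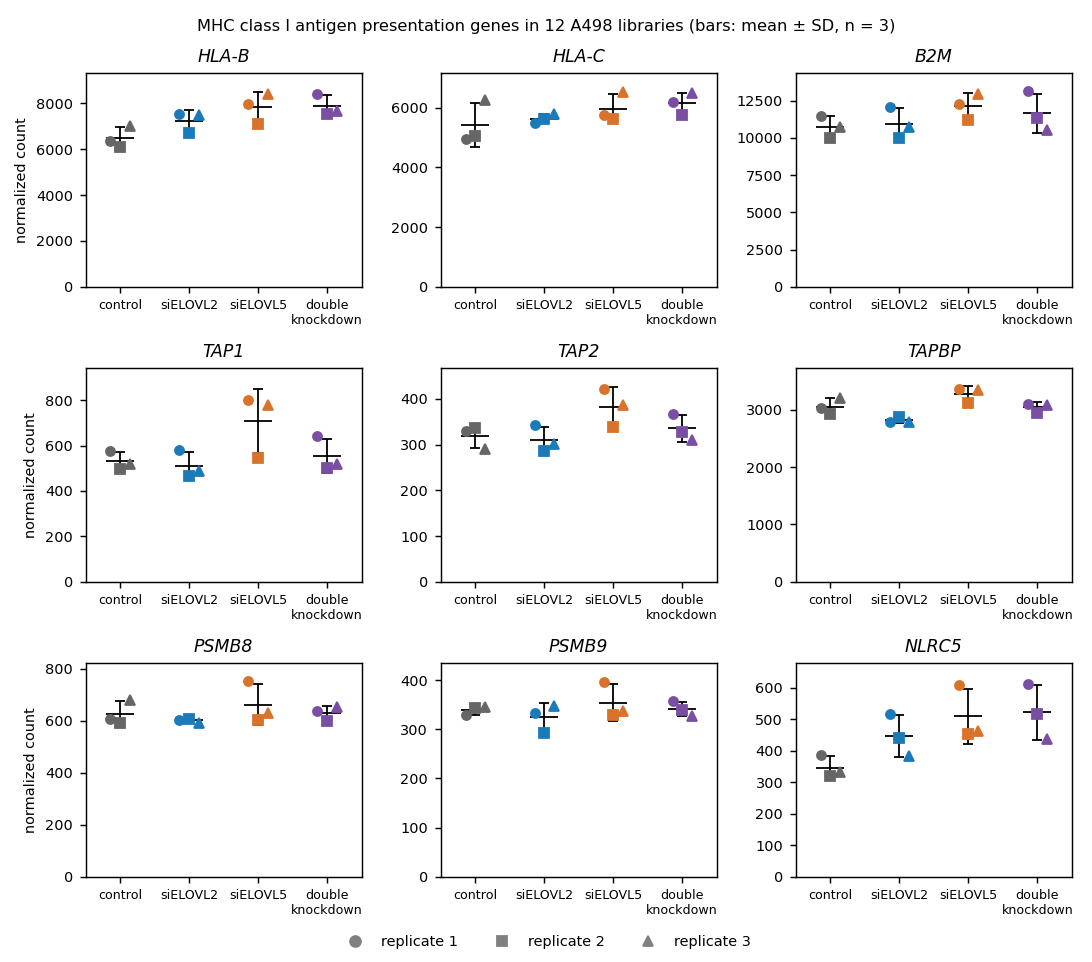
Deposited normalized value of each of the 9 genes in each library, on a linear axis from 0; points are the 3 replicates of a group and bars their mean and SD. NLRC5 and HLA-B lie above every control library in all siELOVL5 and double-knockdown libraries, while most other members overlap between groups.

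NLRC5, which encodes the class I transactivator, had the widest differences from control of the 9 in the single knockdowns and in the double one. Its values were 388, 322 and 332 in control replicates 1, 2 and 3. They were 516, 440 and 383 with siELOVL2, 610, 454 and 464 with siELOVL5, and 613, 517 and 437 in the double knockdown. Every siELOVL5 and double-knockdown library exceeded all control libraries, whereas siELOVL2 replicate 3 lay below control replicate 1. The mean was 347 ± 35.5 (SD, n = 3) in controls, 447 ± 67.0 (n = 3) with siELOVL2, 510 ± 87.5 (n = 3) with siELOVL5 and 522 ± 88.3 (n = 3) in the double knockdown.

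The NLRC5 difference in log2(value + 1) between double knockdown and control was 0.58 (SE 0.15), a 1.49-fold higher level with a 95% interval of 1.19 to 1.88, and its adjusted p of 0.0507 by limma missed the threshold. The corresponding difference for siELOVL5 was 0.54 (SE 0.15), or 1.46-fold with a 95% interval of 1.16 to 1.83 (limma adjusted p = 0.270). For siELOVL2 it was 0.36 (SE 0.15; limma adjusted p = 0.319). The intervals are those of single genes and are not widened for the number of genes tested. Adding siELOVL5 to siELOVL2 left NLRC5 0.22 higher, with an interval of -0.11 to 0.55 that includes no difference. The double knockdown differed from siELOVL5 alone by 0.04 (limma adjusted p = 0.941). The call in the double knockdown depended on which libraries were fitted and on their weights. With 1 library left out the limma adjusted p ran from 0.0296 to 0.175, and with library weights it was 0.00628. NLRC5 passed when siELOVL2 replicate 1 (limma adjusted p = 0.0475) or 3 (0.0494) was left out. It also passed without siELOVL5 replicate 1 (limma adjusted p = 0.0355) or 3 (0.0296), and without the third double-knockdown library (0.0322).

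HLA-B and HLA-C encode the polymorphic heavy chains that bind the peptide. HLA-B stood at 6357, 6112 and 7010 in the control libraries. It was at 7518, 6705 and 7484 with siELOVL2, 7964, 7108 and 8426 with siELOVL5, and 8426, 7550 and 7685 in the double knockdown. All libraries of siELOVL5 and of the double knockdown lay above the highest control, and siELOVL2 replicate 2 lay below it. HLA-B averaged 6493 ± 464 (SD, n = 3) in controls and 7887 ± 472 (n = 3) in the double knockdown, a log2 difference of 0.28 (SE 0.09; limma adjusted p = 0.0952). With siELOVL5 the difference was 0.27 (SE 0.09; limma adjusted p = 0.356), and with siELOVL2 it was 0.16 (SE 0.09; limma adjusted p = 0.475). Without siELOVL5 replicate 3 in the fit, HLA-B passed in the double knockdown (limma adjusted p = 0.0366), as it did with library weights (0.0272).

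HLA-C had values of 4941, 5056 and 6272 in controls, 5498, 5626 and 5795 with siELOVL2, 5766, 5626 and 6537 with siELOVL5, and 6195, 5766 and 6485 in the double knockdown. Control replicate 3 exceeded 2 of the 3 double-knockdown libraries, so the groups overlapped. The difference between double knockdown and control was 0.19 on the log2 scale (limma adjusted p = 0.322). It was 0.06 with siELOVL2 and 0.15 with siELOVL5, at adjusted p of 0.833 and 0.656 by limma. In GENCODE 29 the gene model of HLA-B overlaps that of HLA-C by 2640 bases on the same strand. That HLA-B model also overlaps USP8P1, RPL3P2, WASF5P and LINC02571, and the RefSeq promoter stretches of HLA-B and HLA-C printed above lie apart. The coding sequences of HLA-B and HLA-C are close relatives. How 36-base reads that match several HLA genes were assigned was not stated in the labels, and the split of reads between HLA-B, HLA-C and related genes is uncertain.

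B2M encodes the light chain that all class I heavy chains share, and it had the highest values of the members. They were 11460, 10010 and 10736 in controls, 12102, 10010 and 10736 with siELOVL2, 12287, 11189 and 12944 with siELOVL5, and 13122, 11318 and 10557 in the double knockdown. Equal values in a pair of libraries mean an equal rank in both. The siELOVL5 libraries lay mostly above the controls, with replicate 2 below control replicate 1. The B2M difference from control was 0.18 with siELOVL5, with a 95% interval of -0.05 to 0.40 (limma adjusted p = 0.603), 0.03 with siELOVL2 and 0.12 in the double knockdown.

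TAP1 and TAP2 encode the subunits of the peptide transporter. TAP1 was at 575 in control replicate 1 and 520 in control replicate 3, with replicate 2 the lowest of the controls. It was at 580, 467 and 488 with siELOVL2, and 640, 501 and 521 in the double knockdown. With siELOVL5 it was at 801, 546 and 780, so that replicates 1 and 3 lay above every library of the other groups and replicate 2 lay below control replicate 1. TAP1 averaged 531 ± 39.6 (SD, n = 3) in controls and 709 ± 141 (n = 3) with siELOVL5, a log2 difference of 0.40 (SE 0.15; limma adjusted p = 0.417). Between siELOVL5 and siELOVL2 the difference was 0.46, with a 95% interval of 0.14 to 0.77 (limma adjusted p = 0.121). Without siELOVL5 replicate 2 it was 0.63 and passed (limma adjusted p = 0.0237).

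In the double knockdown TAP1 differed from control by 0.05 (limma adjusted p = 0.892) and from siELOVL5 alone by -0.34, with a 95% interval of -0.66 to -0.03 (limma adjusted p = 0.242). The interaction, which asks whether the double knockdown departs from the sum of the single ones, was -0.29 for TAP1 with an interval of -0.73 to 0.16 (limma adjusted p = 0.996). An effect of siELOVL5 that differed in the presence of siELOVL2 was therefore not detected for TAP1, and the interval leaves room for a difference of that size.

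TAP2 was at 330, 336 and 290 in controls, 343, 286 and 301 with siELOVL2, 423, 338 and 388 with siELOVL5, and 367, 328 and 311 in the double knockdown. All siELOVL5 libraries exceeded all controls, the lowest by under 2 units. The TAP2 difference was 0.26 with siELOVL5 (SE 0.11; limma adjusted p = 0.493), -0.04 with siELOVL2 and 0.07 in the double knockdown.

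TAPBP encodes tapasin, the bridge between TAP and an empty class I molecule, and it had the narrowest spread. Its values were 3032, 2929 and 3210 in controls, 2788, 2881 and 2788 with siELOVL2, 3366, 3126 and 3352 with siELOVL5, and 3100, 2942 and 3086 in the double knockdown. Every siELOVL2 library lay below every control and below every siELOVL5 library. The share of all tested genes that separated in either way was not counted. The difference from control was -0.12 with siELOVL2 (SE 0.06; limma adjusted p = 0.464) and 0.10 with siELOVL5 (limma adjusted p = 0.631). Between siELOVL5 and siELOVL2, TAPBP differed by 0.22 on the log2 scale (SE 0.06; limma adjusted p = 0.0906).

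PSMB8 and PSMB9 encode immunoproteasome subunits that interferon gamma is known to induce. PSMB8 was at 606, 592 and 681 in controls and at 751, 604 and 628 with siELOVL5. It was at 604, 606 and 593 with siELOVL2 and at 637, 599 and 654 in the double knockdown. Both genes overlapped with the controls in every group. PSMB9 was at 328, 343 and 346 in controls and at 397, 329 and 337 with siELOVL5. It was at 334, 293 and 347 with siELOVL2 and at 357, 340 and 328 in the double knockdown. Of the siELOVL5 libraries, replicate 1 alone exceeded every control for either gene. The siELOVL5 differences were 0.07 for PSMB8, with a 95% interval of -0.12 to 0.27, and 0.06 for PSMB9, with an interval of -0.15 to 0.27. Without siELOVL5 replicate 1 they were -0.02 and -0.03. PSMB9 overlaps TAP1 by 8770 bases and PSMB8 by 568 bases on opposite strands in GENCODE 29, and whether the counting used strand is not stated. These gene models differ from RefSeq, where the TAP1 and PSMB9 starts used for the promoters lie 488 bases apart. Which models the counting used is not known.

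**Figure D2:**
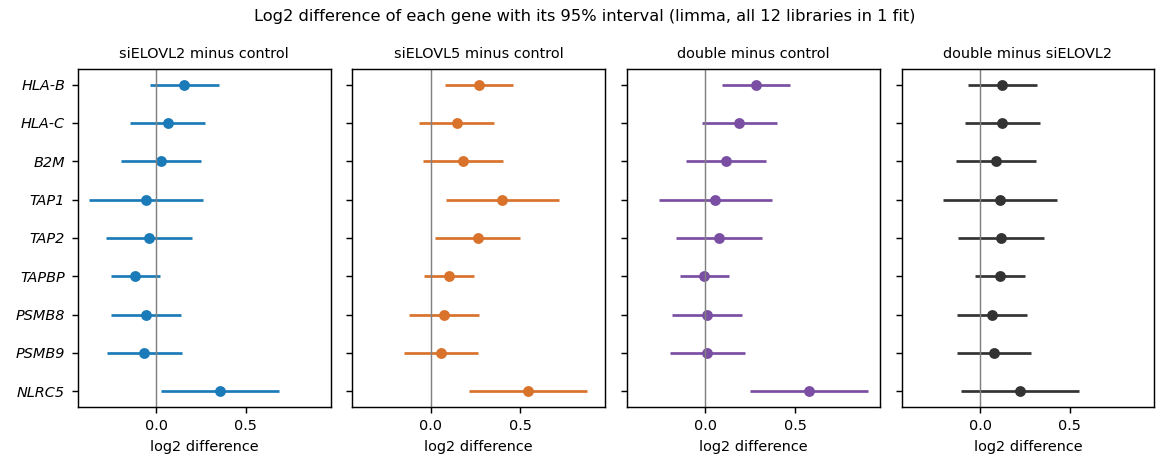
Difference in log2(value + 1) for each gene between the 3 knockdown groups and control, and between the double knockdown and siELOVL2. Points are limma estimates from 1 fit of all 12 libraries, with 3 libraries per group, and bars their 95% intervals. All 9 estimates for siELOVL5 lie above 0, and the interval excludes 0 for NLRC5, TAP1, HLA-B and TAP2.

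Taken by direction, 9 of 9 members lay above control with siELOVL5, with a median log2 difference of 0.18, while 48.7% of all tested genes lay above and their median was -0.00. In that comparison 3 of 9 members (HLA-B, TAP2 and NLRC5) had all siELOVL5 libraries above all controls, as had 6.07% of tested genes. With siELOVL2, 4 of 9 members lay above control, the median was -0.04, and 0 of 9 had all knockdown libraries above all controls, against 12% of tested genes. In the same comparison 1 of 9 (TAPBP) had all siELOVL2 libraries below all controls, a share not counted for all tested genes. In the double knockdown 8 of 9 lay above control with a median of 0.07, and 2 of 9 (HLA-B and NLRC5) had all libraries above all controls, against 13.4% of tested genes. The members are measured in the same libraries and many of them vary together, so these counts are not 9 separate observations, and the 3 comparisons share their control libraries.

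The effect of siELOVL5 on top of siELOVL2 can be read from the double knockdown against siELOVL2, whose group means come from no library of the siELOVL5 and control groups. The p-values use the spread of all 12 libraries, which were also normalized to the same set of values. In this comparison 9 of 9 members lay above 0, with a median of 0.11 against 0.00 for all tested genes, of which 49.9% lay above 0. Each difference was at most 0.22, and none had an unadjusted p under 0.05, as 3.6% of tested genes had. All 9 members were likewise higher with siELOVL5 than with siELOVL2, by a median of 0.15. That comparison draws on the same siELOVL5 libraries as the one against control.

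The interaction had 2 of 9 members above 0 and 7 below, with a median of -0.09 against 0.01 for all tested genes. No gene of the whole table was called, and 522 of 18648 had an unadjusted p under 0.05. For NLRC5 the interaction was -0.32 with an interval of -0.79 to 0.14 (limma adjusted p = 0.996), and for HLA-B it was -0.14.

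**Figure D3:**
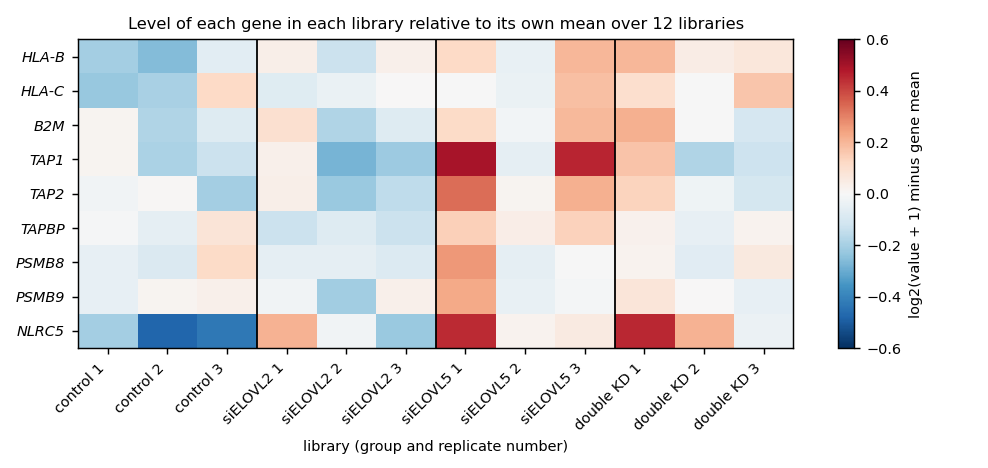
Heat map of each gene's log2(value + 1) minus its own mean over the 12 libraries, with libraries in columns by group and replicate and genes in rows. SiELOVL5 replicates 1 and 3 and double-knockdown replicate 1 are the libraries with the highest mean over the 9 genes of z-scored log2(value + 1).

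Replicates within a group also stood apart from each other. The mean z-score over the 9 genes was 1.5 in siELOVL5 replicate 1, 0.98 in siELOVL5 replicate 3 and 0.89 in double-knockdown replicate 1. It was lowest in siELOVL2 replicate 2, at -0.95, and control replicate 2, at -0.91. NLRC5 and TAP1 were highest in replicate 1 of all 4 groups, and HLA-B and TAP1 were lowest in replicate 2 of all 4 groups. The highest library stood 1.91-fold above the lowest for NLRC5, 1.72-fold for TAP1 and 1.21-fold for TAPBP. The SD between replicates in log2 units, pooled over groups, was 0.21 for NLRC5, 0.21 for TAP1 and 0.05 for TAPBP, where the median of tested genes with a mean of at least 250 was 0.13.

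Across the 12 libraries the closest pair of members was TAP1 and TAP2 (Pearson r = 0.91), followed by B2M and TAP1 (r = 0.84). After removal of the group means these values were 0.82 and 0.85. HLA-C and TAP2 had the lowest r, at 0.07. After removal of the group means HLA-C had an r of -0.33 with TAP2, -0.35 with NLRC5 and 0.06 with B2M, but 0.66 with HLA-B and 0.74 with TAPBP. These are descriptions over 12 libraries in 4 groups, and the points share their libraries and the rank-based scaling. The 5 genes of 10449 whose pattern was most like the mean of the 9 were HERC6 (r = 0.95, Spearman rho = 0.83), EIF2AK2 (r = 0.94, rho = 0.78), C19orf66 (r = 0.92, rho = 0.89), IFIT1 (r = 0.92, rho = 0.66) and ADAR (r = 0.92, rho = 0.88). HERC6, for example, averaged 305 ± 69.4 (SD, n = 3) in controls, 297 ± 66.7 (n = 3) with siELOVL2, 504 ± 141 (n = 3) with siELOVL5 and 424 ± 168 (n = 3) in the double knockdown. EIF2AK2 encodes the RNA-activated kinase PKR, IFIT1 a protein that binds foreign RNA and ADAR an RNA editing enzyme.

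Other class I and class I-like chains were described from a list of 13 tested genes. Among these, 10 lay above control with siELOVL5, 7 with siELOVL2 and 10 in the double knockdown, and none was called with either single siRNA against control. The non-classical chain genes HLA-E and HLA-F differed from control by 0.33 and 0.49 with siELOVL5, at limma adjusted p of 0.260 and 0.265.

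Partners in peptide supply were described from further lists. Of 15 peptide loading and trimming partners, 6 lay above control with siELOVL5, 7 with siELOVL2 and 8 in the double knockdown, and none was called against control. The chaperone genes CALR and CANX, those of highest level, differed by -0.04 and 0.04 with siELOVL5, by 0.13 and -0.00 with siELOVL2 and by 0.08 and -0.10 in the double knockdown. Of 8 further proteasome genes listed with the immunoproteasome, among them PSMB10, PSME3 and PSMB7, the counts above control were 4, 6 and 7, with none called. PSMB10, the remaining inducible catalytic subunit, differed by 0.12, -0.18 and -0.11 in the same order. PSMB7, a constitutive catalytic subunit, differed by -0.02, 0.19 and 0.18, and PSME3, a proteasome activator, by 0.01, 0.08 and 0.07. All 11 genes of the constitutive proteasome core lay above control with siELOVL2 (median 0.10) and in the double knockdown (median 0.10), and 6 did with siELOVL5 (median 0.00), with none called against control. Its members of highest level, PSMB4 and PSMA7, differed by -0.01 and -0.11 with siELOVL5.

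Genes that act on class I transcription and respond to interferon were described in the same way. Of 12 class I transactivation partners, ATF1, a CRE-binding factor, fell by 0.74 in the double knockdown (limma adjusted p = 0.0279). Of 19 interferon signalling genes, 3 rose in the double knockdown, where 4.42% of all tested genes were called. These were the receptor genes IFNAR1 (0.38, limma adjusted p = 0.0265) and IFNGR1 (0.27, limma adjusted p = 0.0383) and the transcription factor gene STAT2 (0.44, limma adjusted p = 0.0351). None of the 19 was called with siELOVL5 against control, where 16 lay above control with a median of 0.27. IRF1 had values of 623, 475 and 1462 with siELOVL5 against 474, 447 and 462 in controls, so replicate 3 stood far above the other libraries of its group.

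Leaving out 1 library ended part of these calls. ATF1 lost its call in the double knockdown in 5 of the 12 fits that left out 1 library, with adjusted p up to 0.121, IFNAR1 in 5 (up to 0.10), STAT2 in 6 (up to 0.150) and IFNGR1 in 10 (up to 0.154). ATF1 also differed by -0.98 between the double knockdown and siELOVL5 (limma adjusted p = 0.0106), a call lost in 0 of 12, and 0.81 higher with siELOVL5 than with siELOVL2 (limma adjusted p = 0.0264), lost in 3 of 12. CD47, a ligand that restrains phagocytosis, fell by 0.71 in the double knockdown (limma adjusted p = 0.0451) and lost its call in 7 of 12. SOCS3, an inhibitor of cytokine signalling, was higher with siELOVL5 than with siELOVL2 by 0.52 (limma adjusted p = 0.0331) and lost that call in 6 of 12.

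Of 36 other interferon-stimulated genes, 35 lay above control with siELOVL5 (median 0.76), 12 with siELOVL2 (median -0.11) and 26 in the double knockdown (median 0.14). None was called against control in any group. Between siELOVL5 and siELOVL2, 5 of the 36 passed the test, against 3.01% of all tested genes, and were higher with siELOVL5: RSAD2 by 3.22, EPSTI1 by 1.74, IFI44L by 1.39, XAF1 by 1.39 and IFI44 by 1.02. The call was lost in 1 of the 12 fits without 1 library for RSAD2, in 8 for EPSTI1, in 7 for IFI44 and in 5 for IFI44L and XAF1, with adjusted p up to 0.163. RSAD2, which encodes the antiviral protein viperin, also fell by 2.93 in the double knockdown against siELOVL5 (limma adjusted p = 0.0211). Of 15 interferon ligands and RNA sensors, OAS3 was higher with siELOVL5 than with siELOVL2 by 1.09 (limma adjusted p = 0.0279), a call lost in 5 of 12. Among 9 tested MHC class II genes, which serve peptides from outside the cell, 7 lay above control with siELOVL5 (median 0.31) and none was called. CD74 and HLA-DMA, the highest of them, averaged only 43.6 and 38.7 over all libraries and differed by 0.31 and 0.20. The class II median therefore rests on low values.

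**Figure D4:**
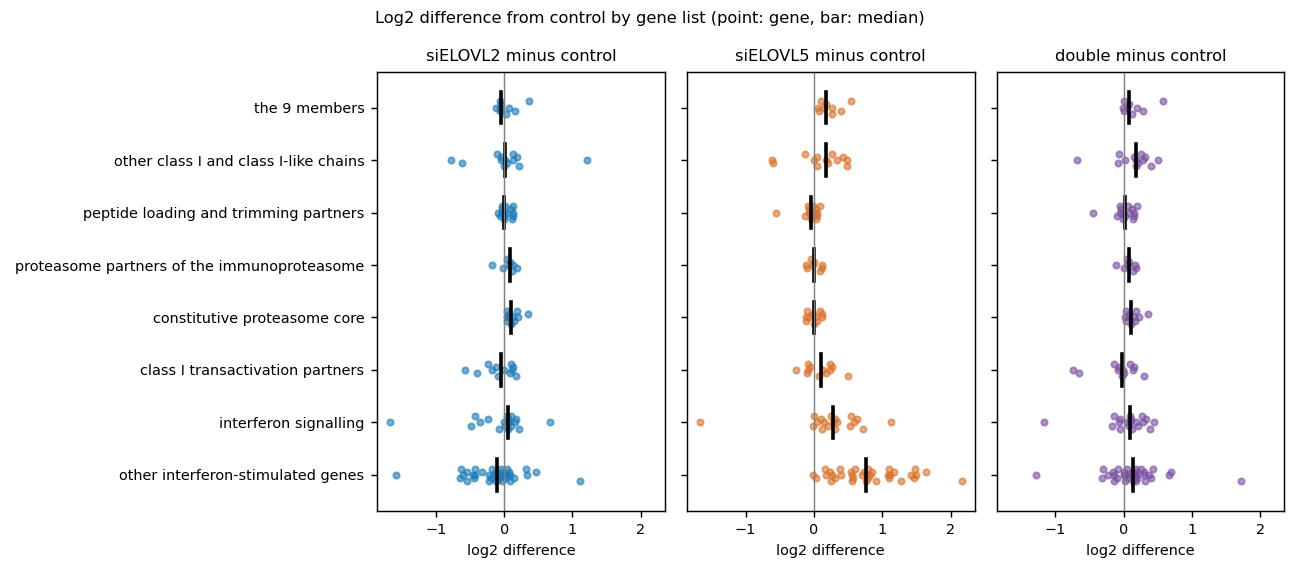
Differences from control in log2(value + 1) for every tested gene of the class I members and of the lists described in the text, for the 3 knockdown groups; each point is 1 gene and the line its list's median. In the siELOVL5 group the other interferon-stimulated genes have a median of 0.76 and the 9 class I members one of 0.18.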

How the data were processed

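RNA-seq libraries (total RNA, paired 36-base reads, per the labels' protocols) came from 12 A498 samples, 3 biological replicates in each of 4 groups. The deposited table holds 1 normalized signal value per gene and library: every column has the same set of values, which is the form of quantile-normalized counts. The aligner, annotation and build were not given in the sources used here. Quantile normalization fixes all libraries to 1 distribution, so overall shifts in RNA amount cannot be seen.

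Values of at least 1 in at least 3 of 12 libraries left 18648 genes. Log2(value + 1) was fitted with limma 3.58.1 (R 4.3.3) with 4 groups, an intensity trend and Benjamini-Hochberg adjustment within each of 7 comparisons, at a threshold of 0.05. The script was tested on simulated data. No count test was run, since the values are not raw counts.

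The 9 members and the gene lists were chosen with earlier results of these data known, so the lists are descriptions. Named genes were the members; from each other list up to 4 called genes per comparison, or failing that genes of highest mean level; the 5 tested genes with a mean of at least 50 most correlated with the members' mean z-score; and the siRNA targets. HLA-E, HLA-F, PSMB10 and IRF1 were added after their values were seen. Some results for genes on these lists are not reported here. Alternatives were a pseudocount of 5, no filter, a replicate block, TMM scaling, computed with the first library as reference, no trend, library weights, only the groups compared and leaving out each library. Motifs were counted in the 250 bases before each RefSeq start (GRCh38.p14); overlaps of gene models came from GENCODE 29.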

Additional observations from a re-analysis of the deposited data

How the results depend on the processing

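The number of genes called moved by more than 1.5 times under several settings. Without the intensity trend it was 101 (siELOVL2 against control), 413 (double against control), 21 (double against siELOVL2), 200 (double against siELOVL5), 213 (siELOVL5 against siELOVL2) and 9 (interaction). With library weights it was 1569 and 145 for siELOVL2 and siELOVL5 against control, 2241 for the double knockdown, 27 and 1251 for the double knockdown against siELOVL2 and siELOVL5, and 1643 for siELOVL5 against siELOVL2. With only the groups compared it was 412 and 1 for siELOVL2 and siELOVL5 against control, 1 and 21 for the double knockdown against each single one, and 49 for siELOVL5 against siELOVL2. The values reported, in the order used above, were 254 and 26, 825, 11 and 516, and 562. With 1 library left out they ranged from 63 to 829 (siELOVL2), 9 to 41 (siELOVL5), 323 to 1779 (double), 2 to 16 and 156 to 789 (double against siELOVL2 and siELOVL5), and 168 to 714 (siELOVL5 against siELOVL2); the 1779 came without siELOVL5 replicate 3. The cause was not tested.

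Members called went from 0 to 2 with library weights in the double knockdown (HLA-B, adjusted p = 0.0272, and NLRC5, 0.00628, by limma), and without 1 library they ranged from 0 to 2 in the double knockdown and from 0 to 1 between siELOVL5 and siELOVL2. Of 928 values of 49 member results under alternatives, 893 kept direction and side of the threshold. Of the rest, 16 newly passed it and 19 changed direction. Many of the 928 could not change direction. No filter, the block, no trend, only the groups compared, or leaving out a library of another group cannot move the estimate between groups. No member was called in the reported fit, so no call could be lost. The 893 is therefore not a measure of robustness. The 49 results held TAP1 alone for the double knockdown against siELOVL5, and HLA-B, TAP1 and NLRC5 alone for the interaction. Direction changes of the other members there are not counted. Members above 0, reported as 3 for the double knockdown against siELOVL5, were 5 without siELOVL5 replicate 1 and 1 without siELOVL5 replicate 2. For the interaction, reported as 2, they were 4 without control replicate 1 and 0 with TMM scaling. TMM scaling turned PSMB8 (-0.0106) and PSMB9 (-0.00989) in the double knockdown. Leaving out 1 library gave ranges through 0 with siELOVL2 for B2M (-0.0482 to 0.0887), TAP1 (-0.150 to 0.00551), TAP2 (-0.115 to 0.0140), PSMB8 (-0.0966 to 0.00424) and PSMB9 (-0.114 to 0.00566); with siELOVL5 for PSMB8 (-0.0217 to 0.135) and PSMB9 (-0.0264 to 0.109); and in the double knockdown for TAP1 (-0.0535 to 0.123), PSMB8 (-0.0293 to 0.0716), PSMB9 (-0.0210 to 0.0400) and TAPBP (-0.0364 to 0.0296).

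Replicate numbers were not taken to pair the samples, because of 18 same-number pairs only 9 had a correlation of deviations over 0.1 (range -0.00 to 0.21). It was 0.11 to 0.17 for number 1, -0.00 to 0.03 for number 2 and 0.08 to 0.21 for number 3. Even so, 10 of 12 libraries correlated best with their own number in every other group. Libraries of the same number thus shared part of their spread, more for numbers 1 and 3 than for number 2. The fit without the block leaves this out. With the replicate number as a block, genes called were 861, 99 and 1866 against control (siELOVL2, siELOVL5, double), 1368 for double against siELOVL5 and 1317 for siELOVL5 against siELOVL2. Members called with the block were 1 with siELOVL2 (NLRC5, limma adjusted p = 0.0270), 1 with siELOVL5 (NLRC5, 0.0132), 2 in the double knockdown (NLRC5, 0.00110, and HLA-B, 0.0151), 1 for double against siELOVL5 (TAP1, 0.0411) and 2 for siELOVL5 against siELOVL2 (TAP1, 0.0113, and TAPBP, 0.0367).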
